A study of Mus musculus with 20 samples.

Results

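Neat1 and Malat1 are a pair of long non-coding RNA genes that lie side by side in the mouse genome, and both were chosen by their GENCODE M21 symbol. They are 2 of the 55471 genes in the deposited gene count table. Both RNAs stay in the nucleus and are among the most abundant transcripts that carry no protein code. Neat1 (nuclear paraspeckle assembly transcript) is the RNA scaffold of paraspeckles, bodies that hold RNA-binding proteins such as Sfpq, Nono and Pspc1, and only its long form builds them. Malat1 (metastasis-associated lung adenocarcinoma transcript) gathers in nuclear speckles, where splicing factors are stored. The long form of Neat1 and the main form of Malat1 end in an A-rich tract that folds into a triple helix, and RNase P frees that end by cutting off a tRNA-like RNA.

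SIMS cells, a mouse salivary gland line, were grown as wild type, as a Btbd7 KO line that served as negative control, and as 3 Zcchc8 KO clones, with 4 libraries in each of the 5 groups. Both knockouts were made with CRISPR/Cas9, the cells of all groups were kept in DMEM with 10% FBS, and no other treatment is listed. ZCCHC8 is the scaffold of the nuclear exosome targeting complex, which hands short-lived nuclear RNAs to the exosome for decay. Promoter upstream transcripts (PROMPTs), made in the opposite direction from active promoters, are among the best known of these, and a second table counts reads in a PROMPT region for every gene. Each clone is 1 clone, so its 4 libraries share an origin. Nothing in the labels says that the libraries of a group came from separate cultures, so p-values measure only the spread between these samples.

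Gene counts summed to 6833258 to 17771804 over the 20 libraries. Wild-type replicate 1 stood apart, with 14245 genes detected against 17442 to 20889 in the other libraries, and it is not in the PROMPT table, where wild type therefore has 3 libraries. Zcchc8 itself was at 61.6 to 68.1 CPM (counts scaled to a common library size) in wild type, 21.9 to 24.9 in clone 2, 50.4 to 60.6 in clone 3 and 55.2 to 65.6 in clone 1. The clone 1 libraries overlapped wild type (log2 fold change -0.11, SE 0.08, edgeR adjusted p = 0.291). Gene counts need not fall when an edit shifts the reading frame, so the clone names used here are those of the labels. Btbd7 was at 95.8 to 103 CPM in the Btbd7 KO libraries and at 192 to 209 CPM in wild type. Of 9 epithelial markers 8 had a median of at least 1 CPM and Krt5 had a median of 0, while the endothelial markers Pecam1, Cdh5 and Kdr had medians of 0. The epithelial markers summed to 3669 to 5442 CPM in wild type and 4744 to 4880 in Btbd7 KO. In the clones they summed to 3394 to 4127 CPM (clone 1), 3801 to 4301 (clone 2) and 3294 to 3789 (clone 3). The 4 fibroblast markers summed to 10.7 to 17.7 CPM in wild type, 20.1 to 32.6 in Btbd7 KO, 9.34 to 12.6 in clone 1 and 21.2 to 26.7 in clones 2 and 3, with Pdgfra and Dcn at a median of 0, and salivary acinar markers to 167 to 188 CPM in wild type, 109 to 115 in Btbd7 KO and 114 to 164 in the clones. The leukocyte markers, mostly Cd68 with Ptprc and Cd3e near 0, summed to 4.52 to 6.19 CPM in wild type, 5.44 to 6.59 in Btbd7 KO, 8.07 to 13.4 in clones 1 and 2 and 4.09 to 6.63 in clone 3. The part of these markers in the results was not tested.

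Both genes lie on the minus strand of chromosome 19 (GENCODE M21, GRCm38), Malat1 at chr19:5795690-5802672 and Neat1 at chr19:5824708-5845478, with a gap of 22035 bases between them. Each counts as 1 unspliced exon, of 6983 bases for Malat1 and 20771 for Neat1. The following ends are shown because they are what separates the short Neat1 form, which carries a poly(A) signal, from the long Neat1 form and Malat1, which carry the A-rich tract. Capitals mark that tract, the signal AATAAA, or the B box that tRNA-type genes carry. Sequences are written 5′ to 3′ on the gene strand and come from GENCODE M21 transcripts.
Neat1 short form, last 100 bases (chr19:5842307-5842406): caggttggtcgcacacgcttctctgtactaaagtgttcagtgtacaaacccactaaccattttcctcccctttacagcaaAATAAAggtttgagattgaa
Neat1 long form, last 100 bases (chr19:5824708-5824807): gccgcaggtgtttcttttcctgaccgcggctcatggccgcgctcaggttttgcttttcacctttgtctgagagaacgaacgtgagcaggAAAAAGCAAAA
Gm27702, the 56-base RNA that abuts the Neat1 end (chr19:5824652-5824707): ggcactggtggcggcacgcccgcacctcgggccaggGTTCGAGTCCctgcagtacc
Malat1, 100 bases up to the end of the tract (chr19:5795982-5796081): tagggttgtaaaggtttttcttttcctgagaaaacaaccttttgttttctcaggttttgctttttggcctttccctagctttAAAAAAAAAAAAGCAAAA
Malat1, the next 56 bases (chr19:5795926-5795981): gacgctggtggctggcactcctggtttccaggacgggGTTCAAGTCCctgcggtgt
The small RNA after Neat1 has a gene name of its own, whereas the matching stretch of Malat1 lies inside the annotated Malat1 gene. The gene row of Gm27702 held at most 2 counts in any library.

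Neat1 was higher in all 12 Zcchc8 KO libraries than in any wild-type or Btbd7 KO library. The wild-type libraries held 447, 686, 665 and 611 CPM. The Btbd7 KO libraries held 759, 847, 755 and 776 CPM, all above wild type. Clone 1 held 1294, 1491, 1368 and 1537 CPM, clone 2 held 1433, 1535, 1538 and 1337 CPM, and clone 3 held 1377, 1454, 1388 and 1082 CPM. CPM are TMM-scaled, that is, divided by library totals corrected for composition. The clones overlapped neither control group.

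Set against wild type, the mean of the 3 clones was 2.33-fold higher for Neat1 (log2 fold change 1.22, SE 0.09, adjusted p = 5.86e-11, edgeR quasi-likelihood test with Benjamini-Hochberg adjustment). At this threshold, an adjusted p under 0.05, 16.2% of the 15297 genes tested were called higher in the same comparison, and 1387 of them had a larger change than Neat1. Taken singly, clones 1 to 3 had log2 changes of 1.24, 1.28 and 1.14 for Neat1, and there 16.7%, 16.1% and 14.0% of genes were called higher. The test that the clones are equal gave an adjusted p of 0.542 for Neat1, and 28.5% of genes were called by it. Wild-type replicate 1 had the lowest Neat1 level of all libraries, and without it the change was 1.12. The clone contrasts and the Btbd7 contrast share the wild-type libraries.

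Neat1 also rose in the Btbd7 KO line, by 1.30-fold (log2 0.38, SE 0.10, edgeR adjusted p = 0.00811), where 7.73% of genes were called higher. Without wild-type replicate 1 this change was 0.27. When only the libraries of these groups were fitted, the adjusted p was 0.0605. The clones were still above the Btbd7 KO line, by 1.79-fold (log2 0.84, SE 0.08, edgeR adjusted p = 1.35e-08), and 18.8% of genes were called higher there.

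Malat1 moved less than Neat1 in the clones and in the opposite direction in Btbd7 KO. The wild-type libraries held 6508, 8028, 7785 and 8095 CPM, and the Btbd7 KO libraries held 5433, 5507, 5113 and 5213 CPM, all lower. Clone 1 held 10165, 9804, 10678 and 10428 CPM, clone 2 held 9358, 10409, 9309 and 9252 CPM, and clone 3 held 8984, 8780, 9183 and 8148 CPM. Every clone library was above every wild-type library. Malat1 was the gene with rank 6 by mean count and took 0.498% to 1.08% of all gene counts in a library, against 0.0427% to 0.159% for Neat1, which had rank 48.

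**Figure D1:**
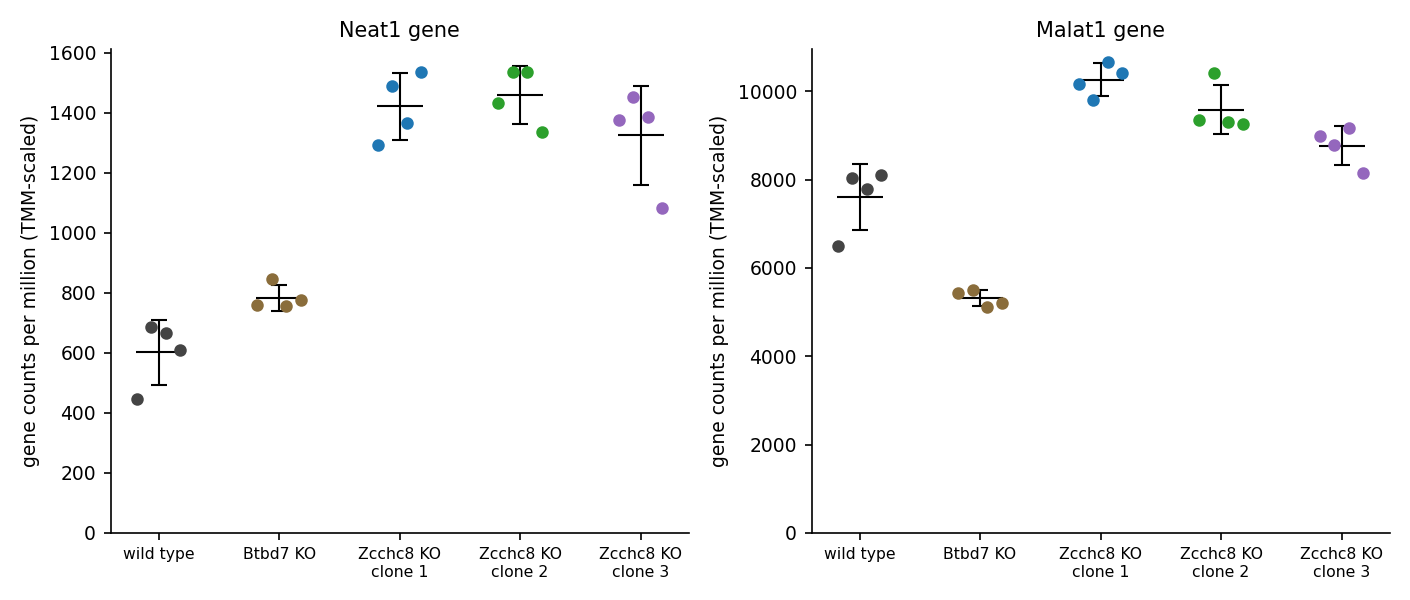
Gene counts as TMM-scaled CPM (vertical axis from 0) of Neat1 and Malat1 in each library, by group. Points are libraries, horizontal marks are group means and bars are 1 SD. Neat1 is highest in the 3 Zcchc8 KO clones (1082 to 1538 CPM), and Malat1 is lowest in Btbd7 KO (5113 to 5507 CPM).

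The mean of the clones was 1.25-fold above wild type for Malat1 (log2 0.32, SE 0.05, edgeR adjusted p = 9.59e-06), and 3642 of the 15297 genes had a larger change. Clones 1 to 3 had Malat1 changes of 0.43, 0.33 and 0.21. Leaving out 1 library at a time, the mean change ranged from 0.28 to 0.38. That of clone 3 then ranged from 0.15 to 0.25 (edgeR adjusted p up to 0.0275). The clones differed by the test of equality (edgeR adjusted p = 0.0127), a call that was lost without replicate 4 of clone 3 (0.0590). In clone 3, the adjusted p was 0.00869 in the fit of all groups and 0.0712 in a fit of the compared groups alone. With the 5 cell lines as the replicates, 3 clones against 2 control lines, the Malat1 change was 0.53 (SE 0.15) and the adjusted p was 0.0876. In Btbd7 KO, Malat1 was 1.43-fold lower than in wild type (log2 -0.52, SE 0.06, edgeR adjusted p = 6.42e-07), where 8.0% of genes were called lower. Against Btbd7 KO, Malat1 was 1.79-fold higher in the clones (log2 0.84, SE 0.05, adjusted p = 1.21e-12, edgeR).

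Per kilobase, Malat1 was far more abundant than Neat1 in every group. In wild type the level per kilobase of exon was 1089 ± 106 CPM for Malat1 (SD, n = 4) and 29.0 ± 5.21 CPM for Neat1, and the ratio of these levels was 38.1 ± 4.09. That ratio was 20.2 ± 0.82 in Btbd7 KO, and 21.6 ± 2.00, 19.5 ± 1.14 and 19.9 ± 1.85 in clones 1 to 3. Because a short and a long Neat1 form share its 5′ part, a value per kilobase over the whole gene mixes both.

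Within single libraries, Neat1 counts were 6.87% to 8.54% of Malat1 counts in wild type, 14.0% to 15.4% in Btbd7 KO and 12.7% to 16.6% in the clones. The clones did not overlap wild type, and they did overlap Btbd7 KO. The log2 ratio of Neat1 to Malat1 was 0.90 higher in the pooled clones than in wild type (12 against 4 libraries, two-sided exact permutation test, p = 0.0011, the smallest it allows, adjusted p = 0.00659 over 18 ratio tests). In Btbd7 KO it was 0.91 higher than in wild type (exact permutation p = 0.0286, the smallest for 4 against 4, adjusted p = 0.0571). The pooled clones and Btbd7 KO differed by -0.01 (exact permutation p = 0.966, adjusted p = 0.966), with SDs of 0.13 and 0.06. With the cell lines as replicates, the 3 clones were 0.45 above the 2 control lines, of which Btbd7 KO is then 1 (exact permutation p = 0.4, where 0.2 is the smallest this design allows).

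The PROMPT region assigned to Malat1 was the member value with the biggest fold change. Its reads may be of either orientation, because the strand setting of the counting is not given in the sources used here. The region held 16, 14 and 17 counts in the wild-type libraries and 10, 11, 13 and 2 in Btbd7 KO. Clone 1 held 152, 171, 175 and 147 counts, clone 2 held 68, 130, 236 and 203, and clone 3 held 189, 122, 84 and 205. Every clone library was above every control library. Scaled by the gene table, its level in wild type was 0.99 ± 0.06 CPM (SD, n = 3), in Btbd7 KO 0.78 ± 0.61 CPM, and in clones 1 to 3 it was 21.8 ± 3.04, 11.5 ± 2.58 and 13.4 ± 1.94 CPM (n = 4 each).

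**Figure D2:**
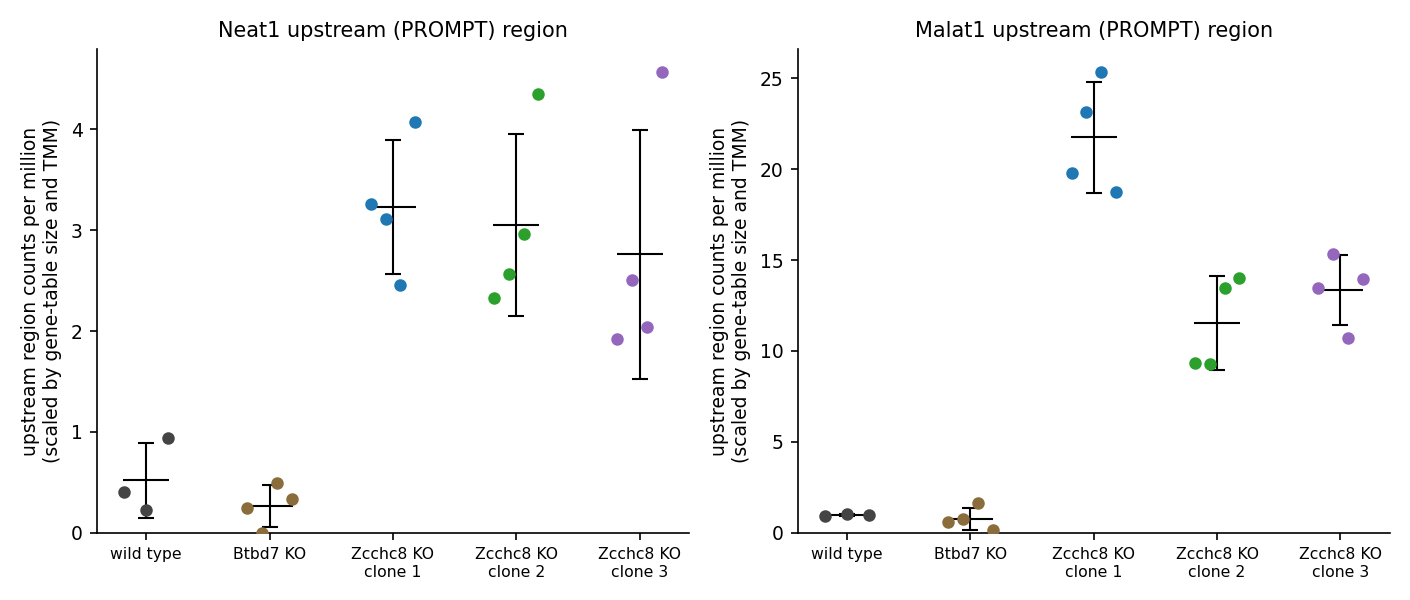
Upstream region counts as CPM, scaled by the size and TMM factors of the gene table (vertical axis from 0), for Neat1 and Malat1 in each library, by group. Points are libraries, horizontal marks are group means and bars are 1 SD. The Malat1 region is at 0.169 to 1.61 CPM in the control libraries and at 9.26 to 25.3 CPM in the clones.

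The mean change of the Malat1 region was 15.3-fold (log2 3.93, SE 0.24, edgeR adjusted p = 3.55e-22). In this comparison 39.9% of the 17655 regions tested were called higher and 3.31% lower, the median log2 change of all regions was 0.45, and 868 regions had a larger change than that of Malat1. For clones 1 to 3 taken singly the log2 change was 4.47, 3.57 and 3.76, and 39.3%, 36.0% and 36.7% of regions were called higher. The clones differed (edgeR adjusted p = 0.000225, called for 10.9% of regions). In Btbd7 KO the change was -0.47 (SE 0.37, edgeR adjusted p = 0.569), where 1.35% of regions were called higher and 1.68% lower. Against Btbd7 KO, where 45.6% of regions were called higher, the change in the clones was 4.40 (SE 0.23, edgeR adjusted p = 3.61e-25).

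Printed next is the RefSeq window around the Malat1 start (GRCm38.p6, chr19:5802623-5802922, minus strand, 250 bases before the start and 50 after it). It is shown because the region that rose is assigned to the sequence upstream of that start. How much of the window the region covers is not given in the sources used here.
Malat1 start: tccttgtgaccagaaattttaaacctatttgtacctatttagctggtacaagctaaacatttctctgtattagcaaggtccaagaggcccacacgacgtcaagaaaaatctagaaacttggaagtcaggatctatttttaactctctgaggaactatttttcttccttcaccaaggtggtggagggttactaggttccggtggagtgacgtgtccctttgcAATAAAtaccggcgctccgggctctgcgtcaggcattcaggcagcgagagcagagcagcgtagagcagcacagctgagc
In capitals is AATAAA, found at base 222 of the window on the gene strand. That motif is in 19.6% of the 32851 RefSeq windows of this length when both strands are searched. TATAAA, found in 13.6% of windows, and GGTAAG, found in 9.67%, were not found in this window on either strand. No Neat1 window was used here.

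The Neat1 PROMPT region is assigned upstream of the Neat1 start, and the antisense gene Frmd8os begins 144 bases beyond that start. Both rows may therefore read some of the same transcripts. Gm27505 and Gm28006 start inside the 5′ part of Neat1 on the same strand, and their upstream regions held 0 counts in every library. How reads in overlapping regions were counted is not given, so the Neat1 row may hold only part of its region. That was not tested. The Neat1 region held few counts: 7, 3 and 16 in wild type, and 4, 0, 4 and 4 in Btbd7 KO. Clone 1 held 25, 23, 17 and 32 counts, clone 2 held 17, 36, 52 and 63, and clone 3 held 27, 20, 16 and 67. In counts, the highest wild-type library equalled the lowest clone library, but in CPM the clones (1.92 to 4.57) were all above the controls (0 to 0.938). The mean change was 5.64-fold (log2 2.50, SE 0.43, edgeR adjusted p = 1.38e-06), and 2929 regions had a larger one. By clone it was 2.59, 2.53 and 2.37, and equality of the clones gave an edgeR adjusted p of 0.931. In Btbd7 KO the change was -1.13 (SE 0.62, edgeR adjusted p = 0.363), and against Btbd7 KO the clones were at 3.62 (SE 0.46, edgeR adjusted p = 5.04e-10).

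Counted against the gene in the same library, the Malat1 region was at 0.0119% to 0.0139% of Malat1 gene counts in wild type and at 0.0893% to 0.238% in the clones. The log2 ratio was 3.61 higher in the pooled clones than in wild type (12 against 3 libraries, two-sided exact permutation p = 0.0044, the smallest it allows, adjusted p = 0.0198). For Neat1 the region was at 0.0394% to 0.158% of gene counts in wild type and 0.142% to 0.425% in the clones, so the groups overlapped. The difference in log2 ratio was 1.53 (exact permutation p = 0.0132, adjusted p = 0.0475), and leaving out wild-type replicate 2 or replicate 3 gave p = 0.0659 by the same exact test, with differences of 1.42 and 1.08. With the cell lines as replicates the difference was 2.26 for Neat1 and 3.65 for Malat1, both at an exact permutation p of 0.2, the smallest that 3 against 2 lines allow. Single clones have 4 libraries against 3 and cannot go below p = 0.0571 in an exact test.

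Several annotated neighbours place their own PROMPT region inside Neat1 or Malat1, so their rows in the PROMPT table read parts of these genes. The length of a region, the strand setting and the rule for shared reads are not given in the sources used here. The regions of Gm27694 and Gm37376, which lie inside Malat1 and point in opposite directions, held 40.4% to 43.7% and 42.5% to 45.6% of Malat1 gene counts in the 19 libraries. These narrow ranges followed Malat1: the log2 change was 0.28 and 0.29 in the clones and -0.62 and -0.60 in Btbd7 KO. With near-equal counts for genes that point in opposite directions, reads of both orientations may enter these regions. Reads of a gene and of its antisense partner may then not be told apart. Whether this holds across the PROMPT table was not tested. The changes in the clones were both -0.11 when scaled within the PROMPT table, and neither then passed the test (edgeR adjusted p = 0.0683 and 0.0741).

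The region of Frmd8os, the antisense gene, reaches into the 5′ part of Neat1. As a share of Neat1 gene counts it held 91.4%, 84.0% and 80.5% in wild type, and 90.1%, 93.0%, 92.8% and 92.6% in Btbd7 KO. It held 40.1% to 52.3% in clone 1, 63.9% to 72.5% in clone 2 and 55.4% to 61.3% in clone 3. No clone library reached the lowest control library. This share was chosen after its values were seen and has no test. The level of the region in wild type was 559 ± 67.6 CPM (SD, n = 3). It rose by 0.54 in the clones on the log2 scale (SE 0.07, edgeR adjusted p = 5.22e-09), and by 0.38 in Btbd7 KO (adjusted p = 0.00369, and 0.0553 without replicate 4 of wild type). Scaled within the PROMPT table, the change in the clones was 0.14 (edgeR adjusted p = 0.126). With the cell lines as replicates it was 0.33 (adjusted p = 0.184).

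The region of Gm27702 lies at the far end, in the 3′ part of the long Neat1 form, next to the tract printed above. It held 348, 257 and 379 counts in wild type, 264, 227, 107 and 155 in Btbd7 KO, and 462 to 1005 in the clones. The clone libraries were all above the controls, at 45.8 to 127 CPM against 13.1 to 22.2. The mean change was 3.34-fold (log2 1.74, SE 0.12, edgeR adjusted p = 1.67e-19), or 2.18, 1.40 and 1.64 for clones 1 to 3. In Btbd7 KO the change was -0.50 (SE 0.14, edgeR adjusted p = 0.0275), a call lost with DESeq2 (adjusted p = 0.0929) and without replicate 4 of wild type (0.115) or replicate 3 (0.0821) or 4 (0.0884) of Btbd7 KO. The Neat1 gene count, which reads both forms, was higher in that line.

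As a share of Neat1 gene counts, the Gm27702 region was at 2.94%, 2.90% and 3.64% in wild type and at 2.10%, 1.78%, 1.77% and 1.69% in Btbd7 KO. It was at 5.43% to 8.27% in clone 1, 3.14% to 4.42% in clone 2 and 4.30% to 5.20% in clone 3. Clones 1 and 3 were above wild type, clone 2 overlapped it, and Btbd7 KO was below it. Set against the 5′ region, the 3′ region was at 3.22% to 4.53% in wild type, 1.83% to 2.33% in Btbd7 KO and 4.36% to 20.6% in the clones. These shares also were chosen after their values were seen and are given with no test. The regions of Gm27505 and Gm28006, short RNAs inside the 5′ part, held 0 counts in every library, although the region of Gm27533 beside them held 218 to 1022.

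**Figure D3:**
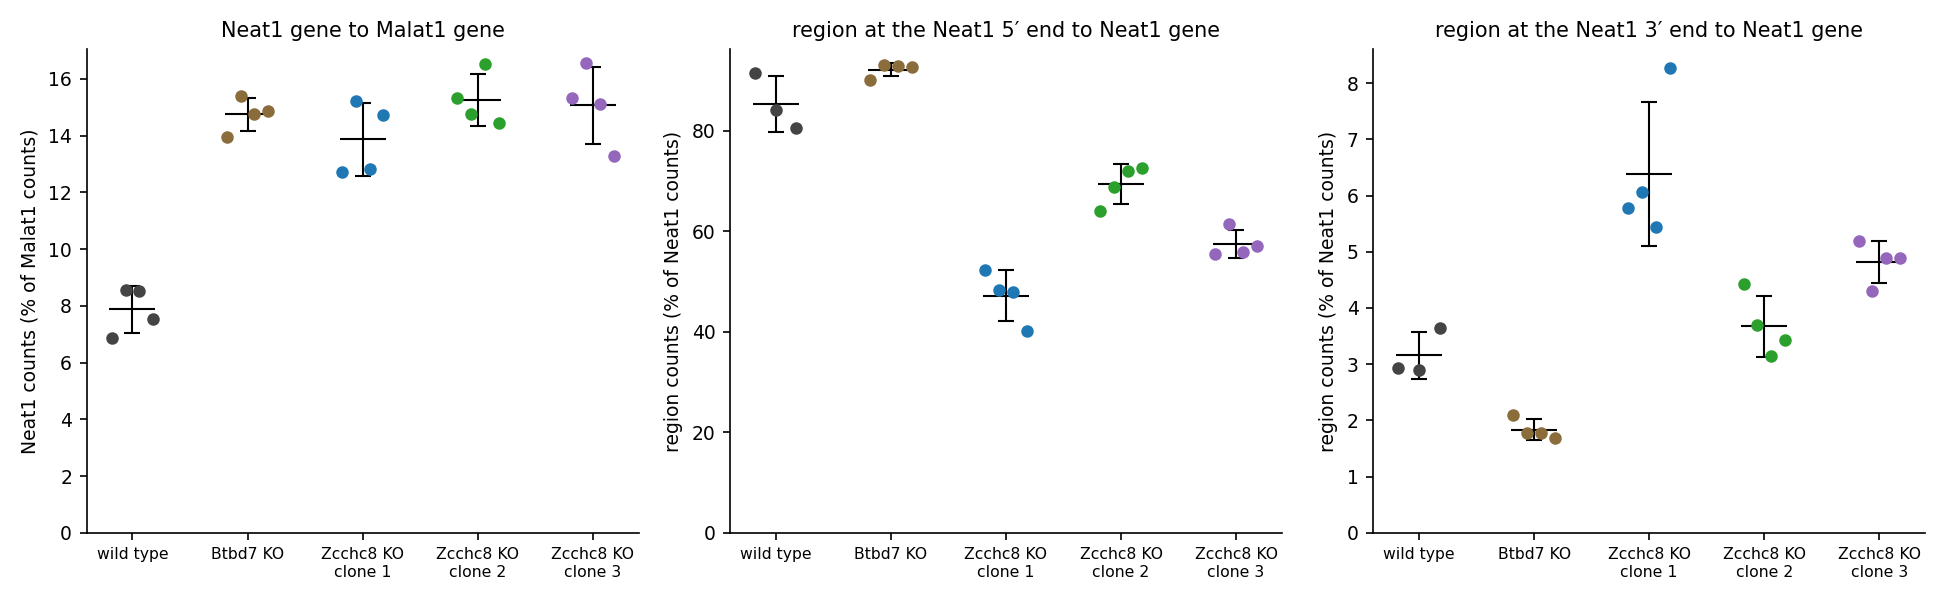
Shares within a library, in percent (vertical axes from 0): Neat1 counts against Malat1 counts, the region at the Neat1 5′ end (that of Frmd8os) against Neat1 gene counts, and the region at the Neat1 3′ end (that of Gm27702) against Neat1 gene counts. Points are libraries, horizontal marks are group means and bars are 1 SD. Neat1 relative to Malat1 is above wild type in Btbd7 KO and in all clones, and the 5′ share is 40.1% to 72.5% in the clones against 80.5% to 93.0% in the controls.

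Within 100 kb of the pair lie 23 other annotated genes, of which 13 passed the filter on low counts. Of these, 5 rose in the clones, where 16.2% of all tested genes did, and 0 fell. The count was 8 with DESeq2 or without TMM, where Frmd8, Map3k11 and Pola2 also passed, and 1 with the cell lines as replicates. In Btbd7 KO 6 rose and 0 fell, where 7.73% of all genes were called higher and 8.0% lower, with a median log2 change of 0.43 against 0.02 over all genes. Fitted on the compared groups alone, 3 of these 6 passed the test. Frmd8os, the antisense neighbour of Neat1, had the largest rise in the clones, with 4.31 ± 1.53, 5.12 ± 1.32 and 3.36 ± 1.52 CPM in clones 1 to 3 against 0.96 ± 0.20 CPM (SD, n = 4) for wild type (log2 2.12, SE 0.33, edgeR adjusted p = 1.48e-05). Its counts were 13 to 18 in wild type, 3 to 9 in Btbd7 KO and 19 to 95 in the clones, and the strand setting of the counting, which bears on them, is not given. Tigd3 (1.33), one of the 2 annotated Sssca1 genes (1.21), Slc25a45 (0.85), a mitochondrial carrier, and Ltbp3 (0.27), a binding protein of latent TGF-beta, were the other 4. With the cell lines as replicates these 4 did not pass the test (adjusted p = 0.182 to 0.683). Tigd3 also lost its call without replicate 2 of wild type, replicate 2 or 4 of clone 1, replicate 2 or 3 of clone 2, or replicate 1 of clone 3 (adjusted p = 0.0511 to 0.0659), and in the fit of the compared groups alone (0.0512). Frmd8, beyond Neat1, was at 0.14 and did not pass the test (edgeR adjusted p = 0.0971, but 0.0427 with DESeq2 and 0.0214 without replicate 1 of wild type), and it passed it in Btbd7 KO (0.35).

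Among the upstream regions of the same neighbours, 18 were tested and 12 rose in the clones, with a median log2 change of 0.49 against 0.45 over all regions, and 39.9% of all regions were called higher. Scaled within the PROMPT table, 5 rose and 2 fell, and with the cell lines as replicates 6 rose. Of the 12, 5 are the regions that lie within Neat1 or Malat1. The regions of Pola2 and Frmd8 rose by 2.19 and 2.15, below the 3.93 of Malat1.

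**Figure D4:**
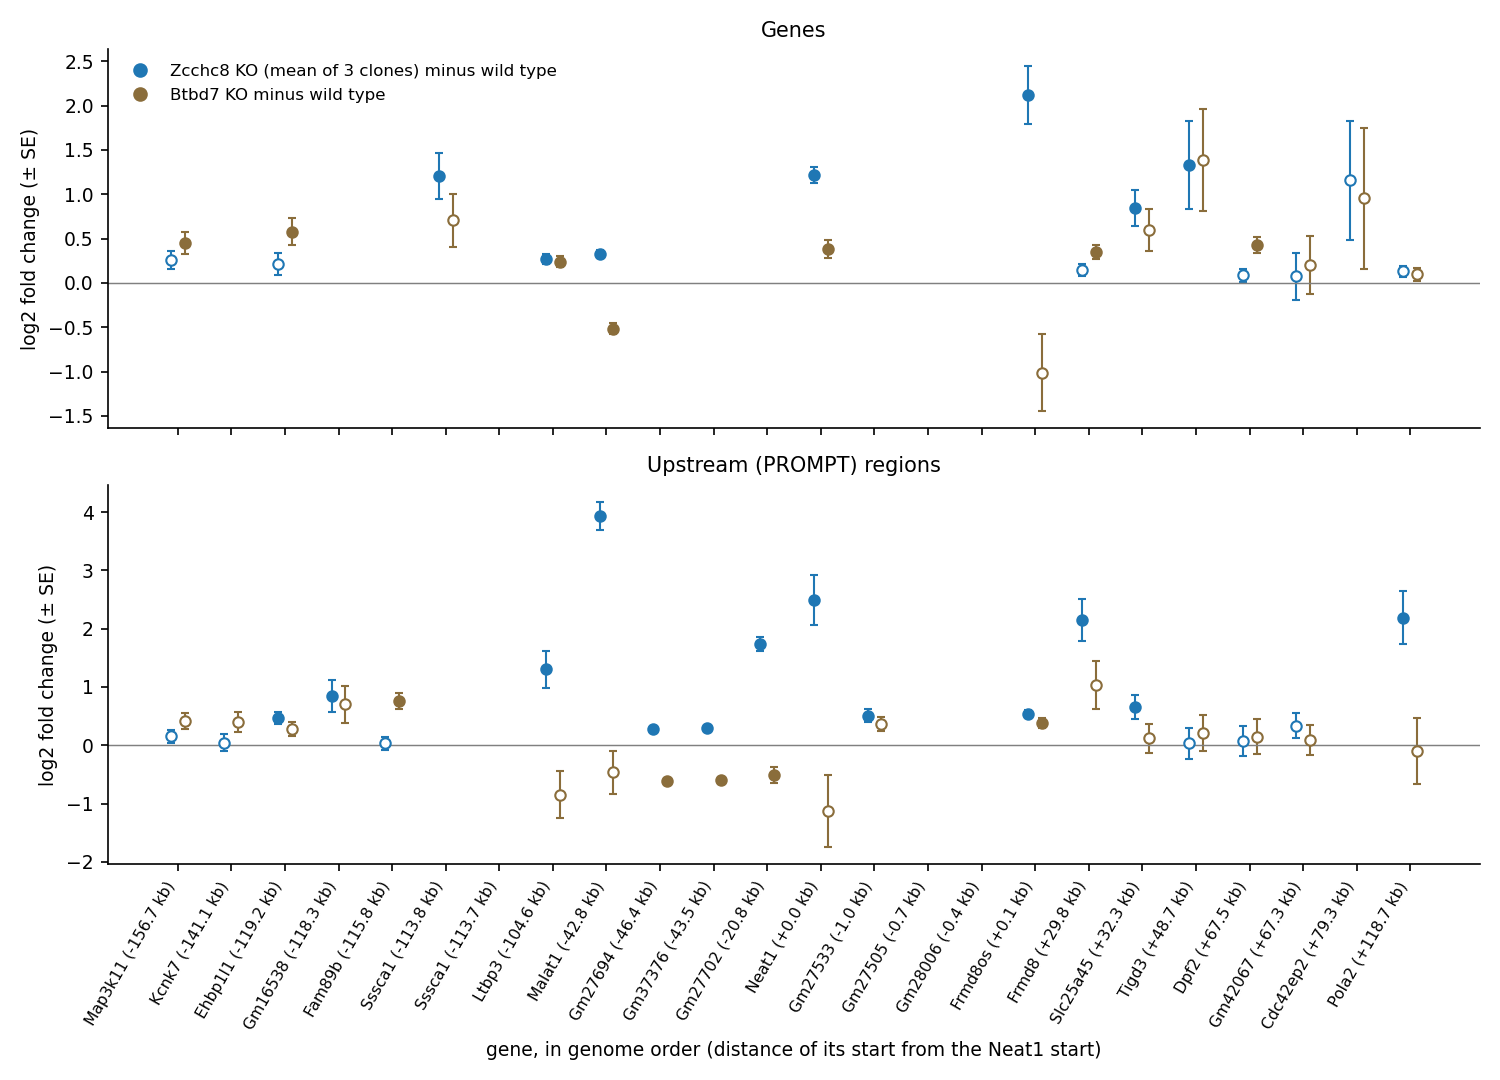
Log2 fold change (vertical axes, bars are 1 SE) of the genes (top) and of their upstream regions (bottom) around Neat1 and Malat1, in genome order with the distance of each start from the Neat1 start in kb. Blue is the average over the clones and brown is Btbd7 KO, each relative to wild type, and filled points passed the edgeR test. The Malat1 region at 3.93 is the highest point of the lower panel.

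Genes of the proteins that gather on these RNAs had list medians near 0. Of 34 tested genes in the list of paraspeckle proteins, 10 were lower and 2 higher in the clones, with a median log2 change of -0.03. Over all genes the median was -0.01, and 19.9% were called lower and 16.2% higher. Without TMM scaling 6 were lower and 3 higher. Pspc1, a core paraspeckle protein, was at 50.1 to 64.6 CPM in wild type and 31.3 to 49.4 in the clones (log2 -0.40, SE 0.07, edgeR adjusted p = 0.000136). Fam98a (-0.28) fell in the clones and rose in Btbd7 KO (0.30). The Btbd7 KO call was lost without replicate 4 of Btbd7 KO and in a fit of the compared groups alone (edgeR adjusted p = 0.0941 in that fit). Fig4 was at -0.27 in the clones and 0.39 in Btbd7 KO. It is in the list and its counts, although its product is a phosphoinositide phosphatase and not a known paraspeckle protein. Rbm4b, an RNA-binding protein, rose in the clones (0.48), a call lost without replicate 2 of wild type (0.0799). Of 36 tested genes of nuclear speckle proteins, 15 were lower and 1 was higher, with a median of -0.08. Beside this, 19.9% of all genes were called lower and 16.2% higher. The list counts were 12 lower and 1 higher with DESeq2, and 8 lower and 3 higher without TMM scaling. U2af1, which reads the 3′ splice site, was at 62.4 to 64.8 CPM in wild type and 43.8 to 53.8 in the clones (log2 -0.37, SE 0.06, edgeR adjusted p = 3.04e-05), and the groups did not overlap. Srsf11 (-0.33) and Thoc1 (-0.27), part of the mRNA export complex, also fell, and Ddx39b, an export helicase, rose (0.40).

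Of 22 tested genes tied to the 3′ ends of Neat1 and Malat1, 7 were lower and 1 was higher, with a median of -0.10, beside 19.9% lower and 16.2% higher over all genes. Without TMM scaling 7 were lower and 2 higher. Among them were protein subunits of RNase P, the enzyme that cuts at the ends shown above. Pop1 was at 38.1 to 44.7 CPM in wild type and 22.1 to 35.0 in the clones (log2 -0.58, SE 0.07, edgeR adjusted p = 1.24e-06), and Rpp40 was at 12.2 to 19.5 against 7.03 to 13.8 (log2 -0.73, SE 0.13, adjusted p = 6.17e-05). The Rpp40 groups overlapped. Rpp30 fell by 0.40 on the log2 scale. Elac2, the RNase Z that trims the tRNA-like RNA, fell by 0.38 in the clones and rose by 0.42 in Btbd7 KO. With the cell lines as replicates, none of the 12 genes named from these 3 protein lists passed the test (edgeR adjusted p = 0.0617 to 0.660).

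**Figure D5:**
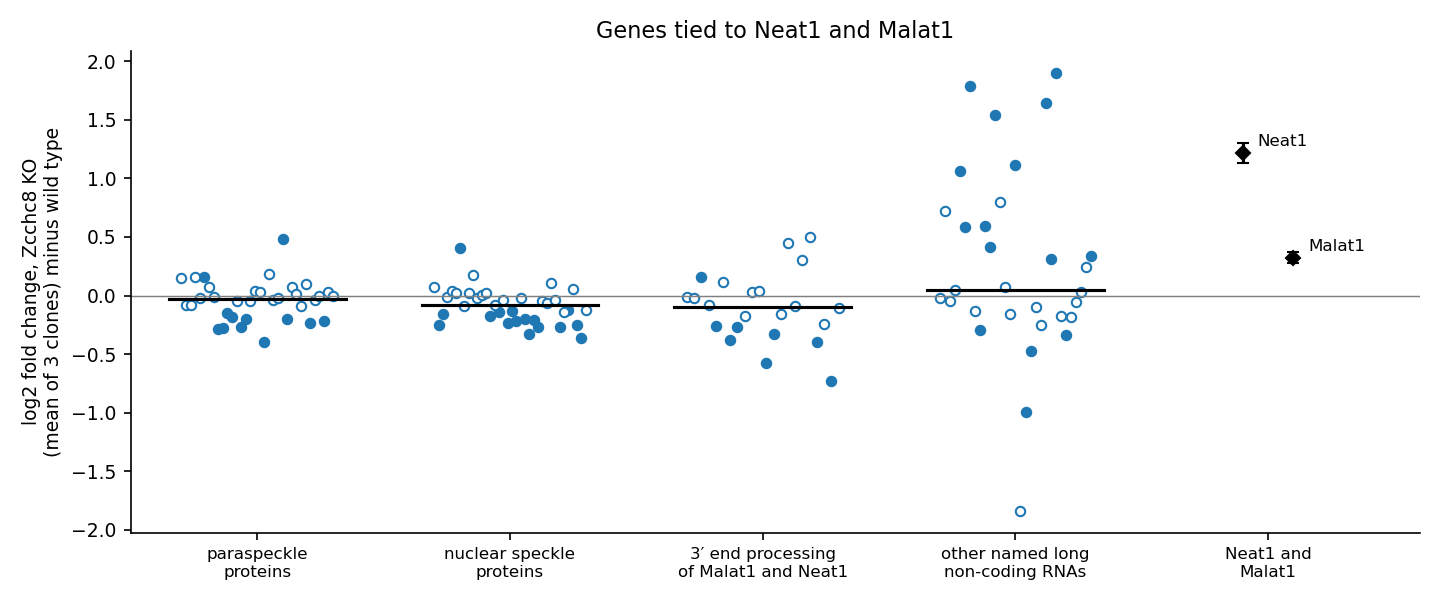
Log2 fold change (vertical axis) of every tested gene in the 4 lists, averaged over the Zcchc8 KO clones relative to wild type, with Neat1 and Malat1 (diamonds, bars 1 SE) at the right. Filled points passed the edgeR test and black lines are list medians. The medians of the protein lists are -0.03 (paraspeckle), -0.08 (nuclear speckle) and -0.10 (3′ end processing), and Neat1 is at 1.22.

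Of 31 other named long non-coding RNAs that were tested, 11 rose in the clones and 4 fell, with a median of 0.05, beside 16.2% higher and 19.9% lower over all genes. Snhg20, a small nucleolar RNA host, was at 6.70 to 14.2 CPM in wild type and 34.2 to 59.5 in the clones (log2 1.90, SE 0.13, edgeR adjusted p = 4.5e-11). Snhg15, another such host, rose by 1.64, and Lncpint by 1.54. Fendrr, at 0 to 0.469 CPM in wild type, had a change of 1.79 in the clones (adjusted p = 0.0234, and 0.919 with the cell lines as replicates) and of 2.61 in Btbd7 KO. These 4 are the called genes of the list with the largest changes, so they stand at its extreme. Neat1 was at 1.22 and Malat1 at 0.32, beside the list median of 0.05.

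The genes whose level followed Neat1 most closely over the 20 libraries, by Pearson correlation of log2(CPM + 0.5) among 10777 genes with a mean of at least 50 counts, were Snhg20 (r = 0.967), Gm23849 (0.966), 4933406P04Rik (0.963), Ssc4d (0.960) and Gm45133 (0.957). All 5 rose in the clones, by 1.86 to 3.70. Those closest to Malat1 were Faim2 (0.969), Gpr146 (0.957), Lrrc26 (0.956), Bcl6 (0.946) and Nabp1 (0.936), each higher in the clones (0.38 to 0.95) and lower in Btbd7 KO (-0.48 to -1.12). The correlation of Neat1 with Malat1 themselves was 0.723. These are descriptions over libraries that share groups, scaling and depth. Genes picked for following a member over these libraries share its pattern over the groups by that choice. Their directions in the clones and in Btbd7 KO are therefore no separate result.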

How the data were processed

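Total RNA of 20 SIMS libraries was extracted with TRIzol and columns and made into stranded libraries, per the labels' protocols. The authors deposited raw read counts per feature in 9 tables, of which the gene tables and the PROMPT table were used and 6 tables of regulatory features were not. FastQC and STAR 2.7.3a are named in the submitters' processing notes; the counter, strand setting and region length are not given in the sources used here. Of 55471 gene identifiers, 55230 matched GENCODE M21. No column lacked a library.

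For each table, 1 quasi-likelihood model of the 5 groups was fitted to the counts (edgeR 4.0.16, R 4.3.3) once filterByExpr had removed low features, with Benjamini-Hochberg adjustment and a threshold of 0.05. The PROMPT fit used gene-table totals and TMM factors. Ratios used a pseudocount of 0.5 and exact permutation tests in scipy 1.17.1. DESeq2 1.42.0, other filters, other scalings, a replicate block, cell lines as replicates and leaving out each library were alternatives. Scripts were tested on simulated data. The members and lists were chosen with earlier results of these data known. Named were Neat1, Malat1, the edited genes, genes within 100 kb, the 4 called genes of each list with the largest change, and the 5 most correlated genes per member. Of the listed symbols, 5 matched no gene. Promoter sequence is RefSeq's. In bulk RNA, fewer cells of a type and less RNA per cell cannot be told apart. Of the genes within 100 kb, 1 enters the counts and is not reported here by itself or plotted.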

Additional observations from a re-analysis of the deposited data

Results flagged for a closer look

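Malat1 gene counts in Zcchc8 KO clone 2 had 1 high library, replicate 2 at 10409 CPM, against 9252 to 9358 CPM in the other libraries of the clone. The log2 ratio of the Neat1 5′ region (that of Frmd8os) to Neat1 gene counts in Btbd7 KO had 1 low library, replicate 1 at -0.15. Chance flags about 1 in 20 groups, and 43 groups were looked at.

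The change of Malat1 against wild type differed between the 3 clones, for its gene counts (edgeR adjusted p = 0.0127) and its PROMPT region (adjusted p = 0.000225). The Gm27702 region, at the Neat1 3′ end, differed too (adjusted p = 1.89e-06). In the last 2 tests clone 1 had the largest change and clone 2 the smallest.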

How the results depend on the processing

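For 46 results on the members and their ratios, 976 values were computed under alternatives. In 865 the test could pass the threshold, and 859 of these stayed on the same side of it, 4 of them with a change of sign between values that did not pass. In the other 111 the exact test cannot pass, so they say nothing about calls, and 109 of these moved by less than 1 SD. With only the compared groups fitted, Neat1 in Btbd7 KO was 0.38 (adjusted p = 0.0605) and Malat1 in clone 3 was 0.22 (adjusted p = 0.0712). With cell lines as replicates, Malat1 in the clones was 0.53 (adjusted p = 0.0876), the Neat1 to Malat1 log2 ratio was 0.45 (exact permutation p = 0.4) and the Neat1 region to gene ratio was 2.26 (exact permutation p = 0.2). This alternative both averages libraries and adds Btbd7 KO to the controls, and its exact test cannot go below 0.2. The Malat1 region to gene ratio was then 3.65, at the same exact permutation p = 0.2. Leaving out 1 library each time, the adjusted p of equal clones for Malat1 ranged from 3.9e-05 to 0.0590, and the Neat1 region to gene ratio in the pooled clones from 1.08 to 2.08. Scaled within the PROMPT table, regions of Kcnk7 (-0.35) and Fam89b (-0.37) were called lower in the clones (edgeR adjusted p = 0.0344 and 0.00606). Neither was called with gene-table scaling. The regions of Gm27694 and Gm37376, called higher with gene-table scaling, were both at -0.11 and lost the call (edgeR adjusted p = 0.0683 and 0.0741). That scaling moved the median of all regions from 0.45 to 0.02 and the called regions from 7036 higher and 585 lower to 5054 and 3665. Without TMM the genes called in the clones were 3229 higher and 2005 lower, against 2474 and 3046. Within the PROMPT table the Neat1 and Malat1 region changes were 2.11 and 3.54. With cell lines as replicates the genes called were 927 higher and 165 lower.

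The replicate numbers gave no sign of pairing the samples. Same-numbered libraries of different groups had a mean correlation of 0.01 (40 pairs, -0.20 to 0.33). Differently numbered ones had a mean of -0.004 (120 pairs). Such means do not exclude pairing. With the replicate block, the change in the clones was 1.23 for Neat1 and 0.33 for Malat1, and 2.63 and 3.97 for their regions, and no call on the members changed. Among the neighbours Tigd3 lost its call (adjusted p = 0.0567) and Map3k11 gained one (0.0325). The Neat1 region rests on 0 to 67 counts per library, which limits its precision.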
